A study of Rattus rattus with 8 samples.

Results

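Expression of 10 genes of cell proliferation, which in growing hair is concentrated in the hair matrix, was examined in whisker follicles of sham control rats and of rats exposed to a simulated blast. The genes were given as a list of RefSeq accessions, and each gene was represented by the probes of the array that carry its accession. All 10 genes had a probe, and together they had 11 of the 30367 different probes on the array that were not controls. Symbols came with the list of accessions and were not checked against an annotation here. The gene table used was that of the Rattus rattus assembly Rrattus_CSIRO_v1, which 0 probe accessions matched. The authors name their animals as Rattus norvegicus, so that the table was of another species. The rats were adult male Sprague-Dawley animals, RNA was pooled from several follicles of a rat, and the RNA of each rat was hybridized to 1 array with a single dye. There were 3 sham control rats at 0 kPa (C1, C2 and C3) and 5 blast rats, whose head alone was exposed, under isoflurane, to a shock wave of 145 kPa (M2 and M3), 175 kPa (H1) or 200 kPa (XH1 and XH3). The rats were observed for either a day or a week before the follicles were pulled, and which period belongs to which rat was not known here. The follicle was not checked against its defining markers, because of 50 marker genes of hair, skin, blood and other cells only Hbb, a haemoglobin gene, could be paired with a probe, and the others were not analysed here.

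The hair matrix is the pool of rapidly dividing cells at the base of a growing follicle, and its daughter cells form the hair shaft and the inner root sheath. A dividing cell passes through G1, in which D-type cyclins commit it to division, copies its DNA in S phase, and then passes through G2 into mitosis. Many transcripts of the later phases are made mainly in dividing cells, so that they are scarce in resting tissue.

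Values are log2 intensities, that is, the background-subtracted brightness of a probe on a log2 scale after quantile normalization, which gives all arrays the same distribution of values. A difference of 1 on this scale is a 2-fold difference. All 11 probes were well above background on all 8 arrays and were saturated on 0 arrays. Repeat spots of the probes that stood for the genes differed, array by array, with a median SD of 0.06 and a highest SD of 0.64, for Top2a on the array of C2. Each sample holds all cells of the follicles, and in it fewer cells of a type and less RNA per cell cannot be told apart.

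Of the G1 cyclins, Ccnd1 (NM_171992) encodes cyclin D1, which activates the kinases that carry a cell through G1 in response to growth signals. The log2 intensity of Ccnd1 was 9.54 in C1, 10.67 in C2 and 10.73 in C3, and 10.31 in M2, 12.81 in M3, 10.94 in H1, 10.66 in XH1 and 10.81 in XH3. M3 stood far above the other rats, C1 was the lowest, and the other 6 rats lay close together, so that the groups overlapped. The mean difference between blast and sham rats was 0.79 on the log2 scale (SE 0.59, 95% confidence interval -0.59 to 2.17), with 3 of 5 blast rats above all sham rats (two-sided exact permutation p = 0.357). Without M3 the difference was 0.36. This permutation test takes all 56 ways to part the 8 rats into 3 and 5, and the smallest p it can give is 0.0179. The distance from the lowest to the highest rat was 9.62-fold, the widest of the 10 genes.

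Ccnd2 (NM_022267) encodes cyclin D2, which acts at the same step. Its log2 intensity was 10.26 in C1, 9.98 in C2 and 10.67 in C3, and 10.38 in M2, 10.53 in M3, 9.64 in H1, 10.55 in XH1 and 10.24 in XH3. H1 was the lowest rat and C3 the highest, and 4 of the 5 blast rats lay within the range of the sham rats. The group means differed by -0.04 (SE 0.25, two-sided exact permutation p = 0.857). M3, the rat in which Ccnd1 was highest, was not set apart in Ccnd2.

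Of the genes used in S phase, Pcna (NM_022381) encodes the sliding clamp that holds DNA polymerase on its template. The log2 intensity of Pcna was 10.68 in C1, 10.74 in C2 and 10.63 in C3, and 10.50 in M2, 9.77 in M3, 10.32 in H1, 10.41 in XH1 and 10.22 in XH3. All 5 blast rats lay below all sham rats, and M3 was the lowest. The SD was 0.06 (n = 3) in sham rats and 0.29 (n = 5) in blast rats. The difference was -0.44 (SE 0.18, 95% confidence interval -0.86 to -0.02), so that the mean of the sham rats was 1.35-fold that of the blast rats. In the two-sided exact permutation test p was 0.0536. Pcna was the 1 gene of the 10 whose groups did not overlap, against 605 of 30217 probes measured on all 8 arrays, or 2%.

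In limma, Pcna had an unadjusted p of 0.042 and an adjusted p of 0.9999, so that it did not pass after adjustment over all probes. Its unadjusted p in limma was 0.0866 without C1, 0.107 without C2, 0.0759 without C3, 0.057 without H1 and 0.0726 without XH3. It stayed under 0.05 without M2 (0.0293), without XH1 (0.0434) and without M3 (0.0223). The difference was between -0.50 and -0.32 with each rat left out in turn. All 8 arrays lay on 1 slide, in 2 rows of 4 columns, and columns 1 and 2 (M2, C1, C3 and XH1) are called the left side here and columns 3 and 4 (C2, H1, XH3 and M3) the right side. Within the left side the difference in Pcna was -0.19, between 2 blast and 2 sham rats, and within the right side it was -0.64, between 3 blast rats and 1 sham rat. With the side as a block the limma estimate was -0.39 (unadjusted p = 0.0703), and with the row as a block it was -0.38 (unadjusted p = 0.0725). Hbb, the 1 blood marker of 4 listed that could be paired with a probe, had log2 intensities on its brighter probe of 10.21 in C1, 13.96 in C2 and 11.64 in C3, and 17.42 in M2, 13.34 in M3, 15.37 in H1, 13.31 in XH1 and 14.43 in XH3. Its mean was 2.84 higher in blast rats, with 3 of 5 above all sham rats (two-sided exact permutation p = 0.0893). On the dimmer probe of Hbb the difference was 3.46, with 4 of 5 blast rats above all sham rats (two-sided exact permutation p = 0.0357). The part of Hbb, or of blood, in the difference in Pcna was not tested.

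Top2a (NM_022183) encodes topoisomerase II alpha, which untangles the copied DNA strands and accumulates from S phase to mitosis. Its log2 intensity was 7.87 in C1, 7.22 in C2 and 8.15 in C3, and 8.88 in M2, 7.79 in M3, 6.84 in H1, 7.90 in XH1 and 7.51 in XH3. M2 was the highest and H1 the lowest rat, a 4.12-fold distance, and both were blast rats. The other 3 blast rats lay within the range of the sham rats, and the means differed by 0.04 (SE 0.44, two-sided exact permutation p = 0.964).

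Ccna2 (NM_053702) encodes cyclin A2, which acts in S phase and again at the entry into mitosis. It was the gene with 2 probes. Values of the brighter probe were 9.32 in C1, 8.27 in C2 and 9.84 in C3, and 10.20 in M2, 8.40 in M3, 8.15 in H1, 9.23 in XH1 and 9.002 in XH3. On the other probe the values were 8.77, 8.17 and 9.31 in the same sham rats, and 9.46 in M2, 8.38 in M3, 7.32 in H1, 8.90 in XH1 and 8.73 in XH3. On both probes M2 was the highest and H1 the lowest rat, and the groups overlapped. The probes followed each other across the 8 rats, with a Pearson r of 0.92 (exact permutation p = 0.000471) and a Spearman rho of 0.98 (exact permutation p = 0.000397), and r was 0.98 without the 2 rats farthest from the median of the brighter probe. The difference between blast and sham was -0.15 (SE 0.53) on the brighter probe and -0.19 (SE 0.49) on the other.

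The genes of G2 and mitosis include Ccnb1 (NM_171991), which encodes cyclin B1, and Cdk1 (NM_019296), the kinase that cyclin B1 activates to start mitosis. The log2 intensity of Ccnb1 was 7.24 in C1, 6.51 in C2 and 7.80 in C3, and 7.76 in M2, 7.23 in M3, 6.27 in H1, 7.48 in XH1 and 7.24 in XH3. That of Cdk1, a mean over up to 10 spots per array, was 9.68 in C1, 8.70 in C2 and 9.97 in C3, and 10.24 in M2, 9.39 in M3, 9.09 in H1, 9.97 in XH1 and 9.38 in XH3. Both genes were high in M2 and C3 and low in C2 and H1, so that each group held high and low rats. The difference between the means was 0.01 for Ccnb1 (SE 0.40, two-sided exact permutation p = 0.982). For Cdk1 it was 0.16 (SE 0.37, two-sided exact permutation p = 0.732). With sides as a block in limma the estimate for Cdk1 was 0.41, with an unadjusted p of 0.0346 and an adjusted p of 0.9999. Within the left side Cdk1 was 0.28 higher in blast rats, and within the right side, where C2, the lowest rat, is the 1 sham rat, it was 0.58 higher. Within rows its direction turned, at 0.48 in row 1 and -0.39 in row 2.

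Plk1 (NM_017100) encodes a kinase that acts on centrosomes, spindle and chromosome separation. Its log2 intensity was 10.15 in C1, 9.68 in C2 and 10.58 in C3, and 10.67 in M2, 10.46 in M3, 9.82 in H1, 10.03 in XH1 and 10.01 in XH3. The rats at 145 kPa lay above the other 3 blast rats, and C3 lay between the 2 of them. The distance from C2, the lowest rat, to M2, the highest, was 1.99-fold, and the means differed by 0.06 (SE 0.27, two-sided exact permutation p = 0.821).

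Birc5 (NM_022274) encodes survivin, a subunit of the chromosomal passenger complex that oversees the attachment of chromosomes to the spindle. Its log2 intensity was 8.99 in C1, 8.34 in C2 and 9.37 in C3, and 9.30 in M2, 8.77 in M3, 8.20 in H1, 8.81 in XH1 and 8.80 in XH3. C3 and M2 were the highest rats and H1 and C2 the lowest, as for Ccnb1. The difference between blast and sham was -0.12 (SE 0.30, two-sided exact permutation p = 0.661).

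Cdc20 (NM_171993) encodes the activator of the anaphase-promoting complex, which ends mitosis by having cyclin B1 degraded. Its log2 intensity was 9.41 in C1, 10.50 in C2 and 10.16 in C3, and 9.97 in M2, 11.24 in M3, 10.6998 in H1, 9.40 in XH1 and 9.92 in XH3. The order of the rats differed from that of the other genes of mitosis, with M3, H1 and C2 the highest and XH1 and C1 the lowest. The difference was 0.22 (SE 0.45, two-sided exact permutation p = 0.679), and the groups overlapped.

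**Figure D1:**
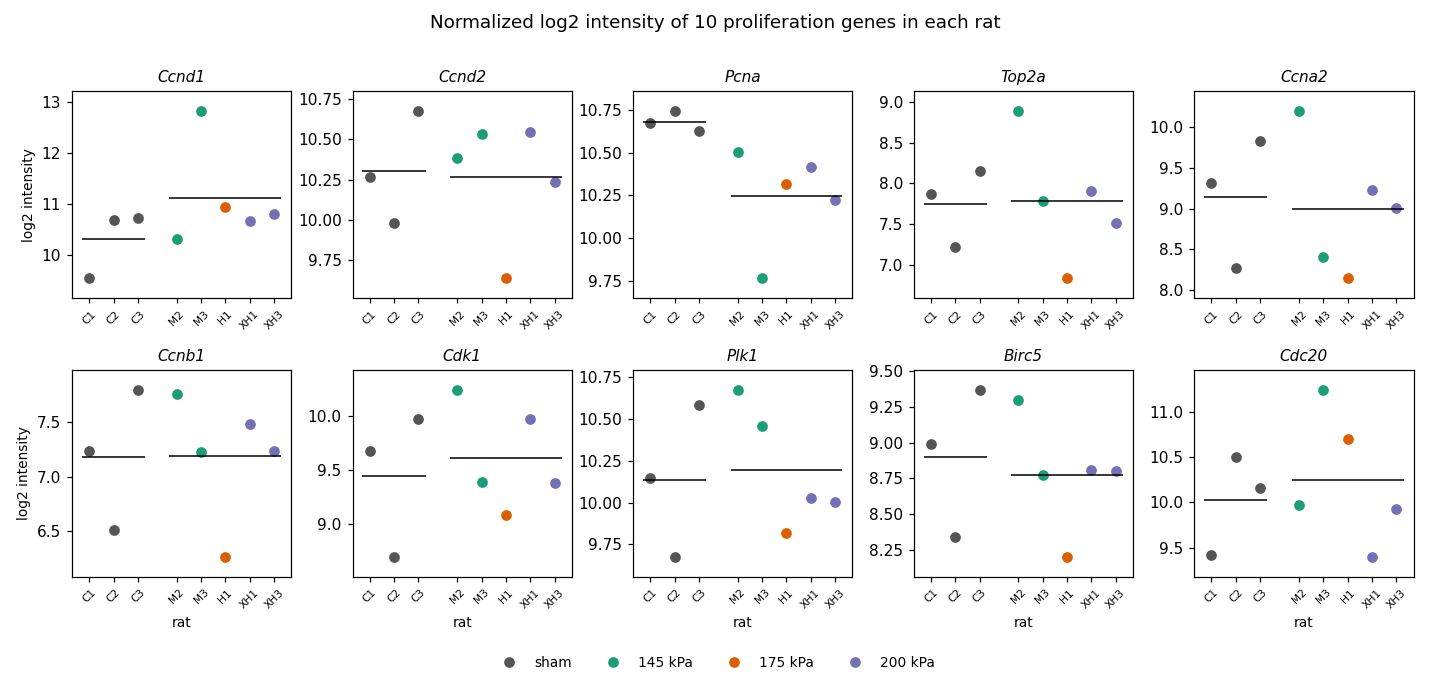
Each panel gives 1 gene, with the rats along the horizontal axis and the normalized log2 intensity on the vertical axis, whose range differs between panels and does not start at 0. Points are single rats coloured by pressure and lines are the means of the sham and the blast rats. All 5 blast rats lie below all sham rats for Pcna, and for the other 9 genes the groups overlap.

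Taken over the 10 genes, 6 were higher and 4 lower in the blast rats by their means, and of all 30366 probes tested 15500 were higher. The tally depended on the handling: it was 2 higher and 8 lower with array quality weights or without C2, 9 higher and 1 lower without H1 or without C3, 3 higher and 7 lower without M2, and 8 higher and 2 lower with the side as a block. The median difference was 0.03 on the log2 scale, against 0.00 over all probes tested. With limma and Benjamini-Hochberg adjustment, 0 of the 10 genes and 0% of the probes had an adjusted p under 0.05. At an unadjusted p under 0.05 there was 1 of the 10 genes, Pcna, against 850 of the probes, or 2.8%. Lower and at an unadjusted p under 0.05 were the same 1 of 10 genes and 1.62% of the probes. The methods' analysis of variance gave the same counts of 0 and 1. The confidence intervals show what these 8 rats could not resolve. For Ccna2 the interval of the difference ran from -1.39 to 1.099, which takes in a fall as well as a rise of more than 2-fold, and for Plk1 it ran from -0.57 to 0.69.

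The blast rats differed in pressure, and the contrasts of each pressure with sham use the same 3 sham rats. In the comparison of 145 kPa with sham, 0 of the 10 genes had an unadjusted p under 0.05 in limma, against 4.91% of 30217 probes, and 0 had an adjusted p under 0.05, against 0%. In that of 200 kPa with sham the count was also 0 of 10 genes, again against 4.91% of the probes, and 0 against 0% after adjustment in limma. The mean log2 intensity of Pcna was 10.68 in sham rats, 10.13 at 145 kPa and 10.32 at 200 kPa, and that of H1, at 175 kPa, was 10.32. Its difference from sham was -0.55 at 145 kPa (SE 0.25) and -0.36 at 200 kPa (SE 0.25). For Ccnd1 the difference was 1.24 at 145 kPa (SE 0.80) and 0.42 at 200 kPa (SE 0.80). The value at 145 kPa rests on M3, at 12.81, while M2, at 10.31, was below the mean of the sham rats, 10.32. Without M2, which leaves M3 alone at 145 kPa, the difference from sham was -0.92 for Pcna and 2.49 for Ccnd1. In Pcna too the 2 rats at 145 kPa differed, with M3 at 9.77 and M2 at 10.50, nearer to the sham mean of 10.68. Without C3, Plk1 was 0.65 higher at 145 kPa than in sham rats (unadjusted p = 0.0429, adjusted p = 0.907 in limma). For 200 kPa, the unadjusted p of Pcna in limma was 0.0349 without M2 and 0.035 without M3, at an unchanged difference of -0.36, since these rats enter the pooled spread alone.

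A trend with pressure was fitted among the 5 blast rats alone. In limma, 0 of the 10 genes had an unadjusted p under 0.05, against 2.84% of 30236 probes, and 0 had an adjusted p under 0.05, against 0%. The lowest unadjusted p was that of Plk1, 0.0835, with a slope of -0.51 per 50 kPa (SE 0.23). It was 0.0348 with normexp background correction, 0.0499 with the authors' deposited log2 values and 0.0431 without H1. Without M2, Cdc20 (slope -1.47) and Ccnd1 (slope -1.80) had an unadjusted p of 0.0176 and 0.0227 (adjusted p of 0.299 and 0.305 in limma), and M3 was then the only rat at 145 kPa. The pressure of 175 kPa is 1 rat, H1, and was not compared with sham.

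Most of these genes varied between rats more than the array at large did. The SD within groups had a median of 0.57 over the 10 genes, from 0.24 for Pcna to 0.89 for Ccnd1, and of 0.39 over the 17472 probes that were well above background on all arrays. The median distance between the lowest and the highest rat was 2.89-fold over the 10 genes and 2.23-fold over those probes. Ccna2 had a larger SD than 89.7% of the probes and Top2a than 84.1%, while Plk1, at 49.6%, Ccnd2, at 43.7%, and Pcna, at 14.8%, did not exceed the middle of the array. These values are descriptions of the list, and no test was made over it.

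The rats that were high in one gene of G2 and mitosis were mostly high in the others, with the exception of Cdc20. Correlations across the 8 rats were computed for all 45 pairs of the 10 genes, with a two-sided exact permutation p over the 40320 pairings and Benjamini-Hochberg adjustment over the 45 pairs, and 17 pairs had an adjusted p under 0.05. Among the 7 genes Top2a, Ccna2, Ccnb1, Cdk1, Plk1, Birc5 and Cdc20 there are 21 pairs, of which 16 had a positive and 5 a negative r, and 13 had an adjusted p under 0.05 by exact permutation. Cdc20 was set apart after its values were seen, so that the 15 pairs of the other 6 genes describe a group chosen in part by this pattern. All 15 were positive, with Pearson r from 0.74 to 0.96 (median 0.89) and Spearman rho from 0.79 to 0.98. By the exact permutation test with adjustment, 13 of these 15 pairs passed, and the exceptions were Plk1 with Ccna2 (adjusted p = 0.0889) and with Cdk1 (adjusted p = 0.0603). The closest pair was Ccnb1 and Birc5, with r of 0.96 (exact permutation p = 0.00062, adjusted p = 0.0147) and rho of 0.98 (exact permutation p = 0.000397, adjusted p = 0.00595). When the 2 rats farthest from the median of the first gene of a pair were left out, r was between 0.49 and 0.93 in the 15 pairs, with an unadjusted exact permutation p under 0.05 in 10 of them and an adjusted p under 0.05 in 0. Of the 5 pairs that then missed this threshold, 4 held Plk1, and in these r was between 0.49 and 0.70. As deviations from the means of sham and blast, r was from 0.75 to 0.97. Of the 13 pairs, Ccnb1 with Plk1 (exact permutation, adjusted p = 0.0875) and Plk1 with Birc5 (adjusted p = 0.0573) then did not pass. Each of these 6 genes was followed with r of at least 0.74 by between 1.13% (Plk1) and 12% (Ccna2) of the other probes well above background on all arrays.

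These genes also went with the position of the array on the slide. Top2a, Ccnb1, Ccna2, Cdk1 and Birc5, 5 of the 10 genes, were higher in all 4 rats of the left side than in all 4 of the right. Of 30217 probes, 12.6% had ranges that did not overlap between the sides, counted in either direction. The mean of Ccna2 was 9.65 on the left and 8.46 on the right, a 2.28-fold difference, and that of Cdk1 was 9.96 and 9.14, a 1.77-fold difference. For 3 of the 5 genes the ranges were parted by less than the SD between repeat spots in the lowest rat on the left. This rat and the highest on the right were at 7.239 (C1) and 7.238 (XH3) for Ccnb1, at 8.808 (XH1) and 8.802 (XH3) for Birc5, and at 7.873 (C1) and 7.787 (M3) for Top2a. The other 5 genes overlapped between the sides, and of these the mean was lower on the left for Cdc20 (left minus right -0.85) and Ccnd1 (left minus right -0.996). The ranges of the rows did not overlap for 0 of the 10 genes, against 7.04% of the probes. The left side holds 2 sham and 2 blast rats and the right side 1 sham and 3 blast rats. With 4 rats on a side, a correlation within a side has too few rats and is not given. As deviations from the means of the sides, which keep all 8 rats, the 15 pairs had r from 0.63 to 0.91 (median 0.77), 9 of them had an unadjusted exact permutation p under 0.05 with exchanges within sides, and 0 of all 45 pairs had an adjusted p under 0.05. The part of the position on the slide in the joint variation was not tested further. Left and right here are the sides of a slide, and they say nothing of the side of the head, which the labels do not give.

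**Figure D2:**
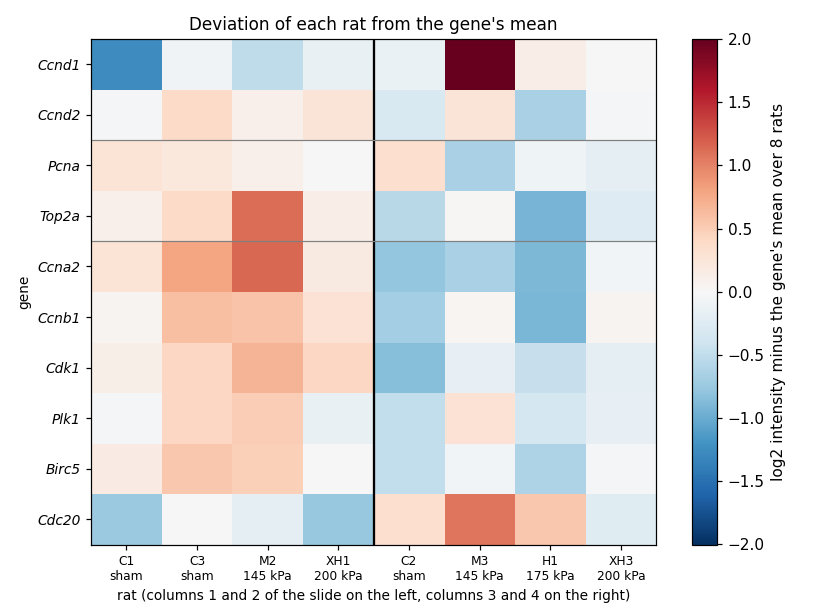
The colour gives the log2 intensity of each gene in each rat minus the gene's mean over the 8 rats, with rats in columns and genes in rows, from G1 cyclins at the top to genes of mitosis at the bottom. The vertical line parts the left side of the slide (columns 1 and 2) from the right side (columns 3 and 4), and Ccna2, with means of 9.65 and 8.46, is above its mean in all 4 rats on the left and below it in all 4 on the right.

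Cdc20 stood apart from the other genes of mitosis. Its Pearson r with the 6 genes named above lay between -0.61 (Ccna2) and 0.01 (Plk1), and 0 of these 6 pairs had an unadjusted exact permutation p under 0.05. As deviations from the means of the sides the same r lay between 0.03 and 0.70, positive in 6 of the 6 pairs against 1 of 6 (Plk1) before. Cdc20 varied with Ccnd1 instead, with r of 0.82 (exact permutation p = 0.00831, adjusted p = 0.0267) and rho of 0.74 (exact permutation p = 0.0458, adjusted p = 0.0982). Without XH1 and M3, the 2 rats farthest from the median of Cdc20, r was 0.83 (exact permutation p = 0.0347, adjusted p = 0.146). As deviations from the means of the sides it was 0.71 (exact permutation p = 0.132, adjusted p = 0.247). An r of at least 0.74 was reached by 15.6% of the other probes well above background with Cdc20, and by 12.8% with Ccnd1.

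The 2 cyclins of G1, Ccnd1 and Ccnd2, had an r of 0.17 (exact permutation p = 0.684) and a rho of -0.14 (exact permutation p = 0.752). Without C1 and M3 this r was -0.47, and as deviations from the means of the sides it was 0.76. Against the 6 genes from Top2a to Birc5, Ccnd2 had r from 0.63 (Ccna2) to 0.91 (Ccnb1). Of these pairs 2 passed after adjustment, those with Ccnb1 (exact permutation p = 0.0031, adjusted p = 0.0155) and Birc5 (exact permutation p = 0.0143, adjusted p = 0.0403). As deviations from the means of sham and blast neither passed (exact permutation, adjusted p = 0.067 and 0.0993). With the authors' deposited log2 values the pair with Birc5 did not pass (exact permutation, adjusted p = 0.0546). As deviations from the means of the sides the 6 r were from 0.32 to 0.87, with an unadjusted exact permutation p under 0.05 for 1, that with Ccnb1. For Ccnb1 the rho was 0.81 (exact permutation p = 0.0218), and without C2 and H1 r was 0.54 (exact permutation p = 0.26). An r of at least 0.74 with Ccnd2 was reached by 8.64% of the other probes well above background.

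Against the same 6 genes Pcna had r between -0.20 (Plk1) and 0.36 (Ccna2), and 0 of the 6 pairs had an unadjusted exact permutation p under 0.05. The sign of these r depended on the handling, since they were between 0.49 and 0.65 without C2 and M3 and between -0.79 and -0.13 as deviations from the means of the sides, where 1 of the 6, that with Cdk1, had an unadjusted exact permutation p under 0.05 (p = 0.0417, adjusted p = 0.163). Against Ccnd1, Pcna had an r of -0.86 (exact permutation p = 0.0156, adjusted p = 0.0413) and a rho of -0.71 (exact permutation p = 0.0576, adjusted p = 0.118). The adjusted p of this r was 0.0506 with scaling to the 75th percentile, 0.0528 with normexp background correction, 0.0975 with the authors' deposited log2 values and 0.0977 as deviations from the means of sham and blast, so that it passed under none of these (exact permutation in each). M3 was the lowest rat in Pcna and the highest in Ccnd1. Without C2 and M3, the rats farthest from the median of Pcna, r was -0.71 (exact permutation p = 0.11), and as deviations from the means of the sides it was -0.81.

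**Figure D3:**
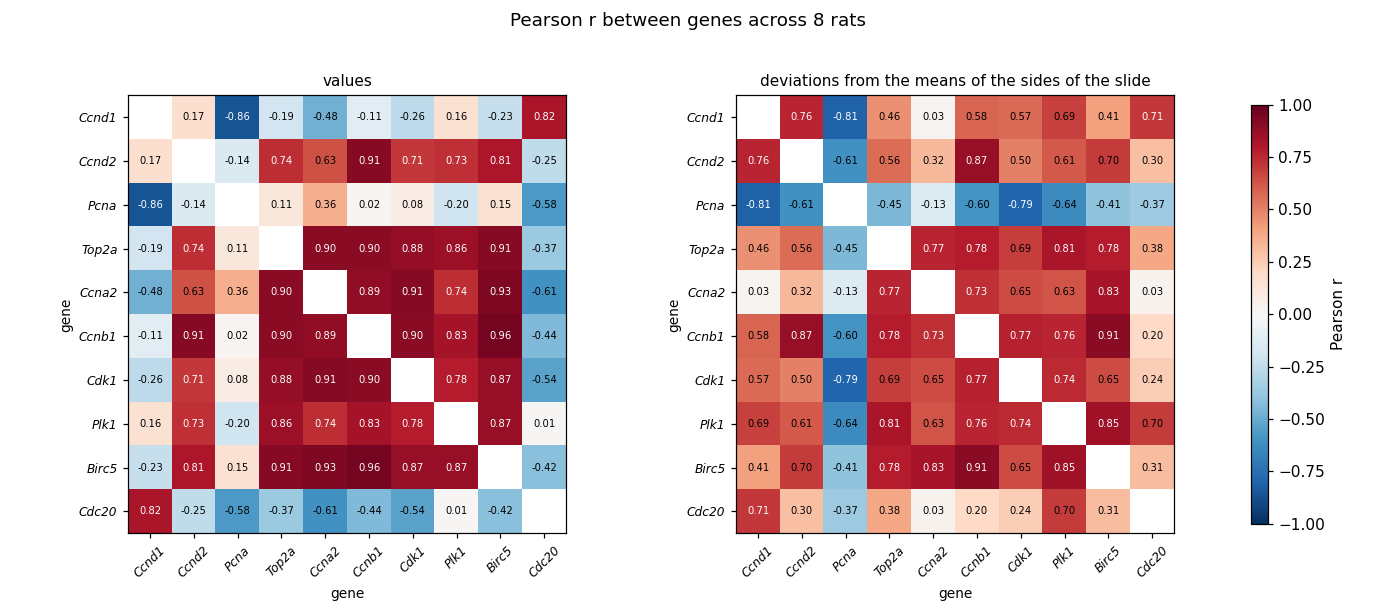
Each cell gives the Pearson r of a pair of genes across the 8 rats, from the log2 intensities in the left panel and from their deviations from the means of the sides of the slide in the right panel. The block from Top2a to Birc5 is positive in both panels, from 0.74 to 0.96 and from 0.63 to 0.91, while Cdc20 with the same 6 genes goes from between -0.61 and 0.01 to between 0.03 and 0.70.

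The brightness of an array before normalization differed between rats, with a median processed signal from 90.9 in C2 to 280.5 in C1. Its log2 had a Pearson r between -0.69 (Ccnd1) and 0.41 (Ccna2) with the normalized values of the 10 genes. Of these 10 relations, 0 had an exact permutation p under 0.05, and for Ccnd1 p was 0.0854 (adjusted p = 0.72), rho was -0.50 (exact permutation p = 0.216) and r was -0.38 without the 2 rats farthest from the median brightness.

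Of 73 other genes of DNA replication, mitosis and the control of G1 that had been listed, 1 could be paired with a probe, and the others were not analysed here. This gene, Ska2 (NM_001009624), encodes a subunit of the complex that holds kinetochores to the spindle. The log2 intensity of its brighter probe was 8.60 in C1, 8.25 in C2 and 8.49 in C3, and 8.42 in M2, 7.95 in M3, 8.13 in H1, 8.26 in XH1 and 8.02 in XH3. It too was higher in all 4 rats of the left side than in all 4 of the right side, with means of 8.44 and 8.09, though XH1, the lowest on the left, at 8.258, and C2, the highest on the right, at 8.253, were nearly level. Between blast and sham it differed by -0.29 (two-sided exact permutation p = 0.107), with 3 of 5 blast rats below all sham rats. On its dimmer probe the difference was -0.11 (two-sided exact permutation p = 0.786), with 1 blast rat below and 1 above all sham rats.

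Among 14786 probes with an accession that were well above background on all arrays and belong to none of the 10 genes, the 2 accessions whose values across the 8 rats were most like the mean of the 10 genes, each centred on its own mean, were NM_001109673 (r = 0.95) and NM_017243 (r = 0.95). The log2 intensity of NM_001109673 was 6.70 in C1, 6.18 in C2 and 6.94 in C3, and 7.03 in M2, 6.90 in M3, 5.99 in H1, 6.72 in XH1 and 6.59 in XH3. That of NM_017243 was 8.23 in C1, 7.97 in C2 and 8.65 in C3, and 8.70 in M2, 8.65 in M3, 7.83 in H1, 8.11 in XH1 and 8.04 in XH3. For both accessions M2 was the highest and H1 the lowest rat, as for Top2a and Ccna2. The mean of the 10 genes takes in genes that ran against each other, such as Pcna and Ccnd1, with an r of -0.86. The r of these accessions is the measure by which they were picked, and it is given without a test.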

How the data were processed

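Spot intensity, with the background subtracted, was extracted by the authors in Feature Extraction (Agilent), and the array headers name version 10.7.1.1. The authors also deposited log2 values, quantile normalized over the 8 arrays, which served as an alternative. Here, controls and outlier spots were dropped, and log2 intensities were averaged over the remaining spots of each probe. Quantile normalization and a lower limit of 3.0 followed the methods, and values were kept on the log2 scale. Groups came from the deposited labels. Blast and sham, the pressures and the trend were compared with limma 3.58.1 in R 4.3.3, with Benjamini-Hochberg adjustment over the 30366 probes that 2 or more arrays per group measured or, for pressures and trend, those that every array used measured. Single genes were compared by exact permutation, and correlations were computed in Python 3.11.15 with NumPy 2.4.6 and SciPy 1.17.1. Where a gene had several probes, the probe with the highest mean stood for it. The limma fit of blast against sham was tried on simulated data in which probes varied independently of each other. It therefore did not cover the joint variation of genes or the position on the slide, and its outcome is not given here. All 10 genes were to be named, other cell cycle genes and markers where a symbol could be paired with a probe, and the 2 accessions most like the genes. The members and lists were chosen with earlier results of these data known. The number of arrays, 3 and 5, limits the precision, and the rats are separate animals.

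Alternatives were scaling to the 75th percentile, a limit of 8, a restriction to probes that 3 or more arrays showed well above background, outlier spots kept, normexp (offset 50) on the median signal, the methods' one-way analysis of variance, limma with an intensity trend or with array quality weights, the title number, row or side of the slide as a block, the probe with the lowest p, the authors' log2 values, omission of 1 rat at a time, all 8 rats in the trend, and deviations from group means or fewer rats in the correlations. Chosen after the data were seen were each rat left out in the contrasts of pressure, deviations from the means of sides and rows, and the comparison of the sides. No probe or promoter sequence was used here.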

Additional observations from a re-analysis of the deposited data

Results flagged for a closer look

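Ccnd1 in M3 was far from the other blast rats, at a log2 intensity of 12.81 against 10.31 to 10.94 in the other 4. Its gap to the nearest of them was 0.748 of the range of the 5 blast rats, above Dixon's 95% value of 0.71, and chance gives such a gap in about 5% of groups. Both spots of the probe were well above background in M3, with an SD of 0.11 between them. This was 1 such value among the 10 genes, and its cause was not tested.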

How the results depend on the processing

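The count of genes at an adjusted p under 0.05 was 0 in every comparison with blast or pressure under every alternative run, and the lowest adjusted p for blast against sham was 0.891, for Pcna with array quality weights in limma. For blast against sham, 21 alternatives of each gene gave 210 log2 fold changes, of which 183 kept their direction and 27 turned. Pcna and Ccnd1 kept theirs throughout, at -0.50 to -0.32 and 0.27 to 0.99. With array quality weights the fold change turned to -0.042 for Top2a, -0.11 for Ccnb1, -0.15 for Plk1 and -0.14 for Cdc20, with the row as a block to -0.13 for Ccnb1, and with the side as a block to 0.18 for Ccna2, 0.036 for Birc5, 0.065 for Ccnd2 and -0.0056 for Cdc20. Over the fits that each omit 1 rat the range was -0.24 to 0.27 for Top2a, -0.32 to 0.32 for Ccnb1, -0.58 to 0.20 for Ccna2, -0.21 to 0.42 for Cdk1, -0.17 to 0.28 for Plk1, -0.40 to 0.11 for Birc5, -0.082 to 0.46 for Cdc20 and -0.20 to 0.15 for Ccnd2. The count at an unadjusted p under 0.05, 1 (Pcna), was 0 with scaling to the 75th percentile, with dim probes removed and with the row as a block, was 1 but for Cdk1 with the side as a block, and ranged from 0 to 1 with each rat left out. With title numbers taken as a replicate block it was also 0, with a fold change of Pcna of -0.41 (unadjusted p = 0.0533). Deviations of same-numbered sham and blast rats had correlations from -0.30 to 0.32, and those of rats with different numbers from -0.41 to 0.38. The labels do not say whether the numbers pair the rats, and with so few rats these correlations cannot decide it. For the trend the count of 0 became 1 (Plk1) with normexp and with the authors' log2 values, and ranged from 0 to 2 with a rat left out. For 145 kPa it became 1 (Pcna) with normexp, and ranged from 0 to 2 with a rat left out, and for 200 kPa from 0 to 1. Without M2, M3, XH1 or XH3, 145 or 200 kPa keeps 1 rat, which is assumed to vary like the other groups. The 17 correlated pairs became 11 as deviations from the means of sham and blast, 6 from those of rows, 0 from those of sides and 0 without the 2 rats farthest from the median. In these pairings exchanges stay within groups or 6 rats remain, so that fewer pairings exist by construction. The r values moved as well. Over the 15 pairs from Top2a to Birc5 the median r was 0.89 in the main handling. It was 0.90 as deviations from sham and blast, 0.90 from rows, 0.77 from sides and 0.86 without the 2 rats. The cause of the lower counts was not tested. All probes of the 10 genes were well above background on every array, but some spots were dim, and for Top2a in C2 the spots had an SD of 0.64.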
